A study of Mus musculus with 7 samples.

Results

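The mRNA levels of 10 genes of the YAP/TEAD system were examined in mouse liver 8 h after carbon tetrachloride (CCl4), a toxin of hepatocytes. The genes were *Yap1* and *Wwtr1*, which encode the transcriptional co-activators YAP and TAZ, the DNA-binding factor *Tead1*, the regulators *Lats2*, *Amotl2* and *Ajuba*, and the target genes *Cyr61*, *Ctgf*, *Ankrd1* and *Axl*. *Cyr61* and *Ctgf* are also named *Ccn1* and *Ccn2*. They were taken by name, 1 entry per Ensembl identifier, and all 10 were among the 14851 identifiers of the deposited table. The test took the 12545 genes whose mean normalised count was 10 or more, and these included 9 of the 10, *Ankrd1* being too low.

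There were 4 livers with both *Trp53* alleles floxed (*Albumin-Cre; p53* FL/FL, called FL) and 3 with wild-type alleles (*Albumin-Cre; p53* WT/WT, called WT), all from male C57BL/6J (N10) mice about 70 days old. Each mouse had received 1 intraperitoneal injection of CCl4 (1 mL/kg of a 20% stock in corn oil), so FL and WT livers shared the toxin, the oil and the *Albumin-Cre* transgene and differed in the floxed *Trp53* alleles. *Albumin-Cre* acts in cells that use the *Albumin* promoter, chiefly hepatocytes. Which other liver cells, bile duct cells among them, kept *Trp53* was not measured here. Per the study's methods, some mice of both genotypes also carried a red fluorescent reporter allele, without saying which. No uninjected liver was among the samples, so the values compare genotypes after CCl4 and not injected with uninjected tissue.

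YAP and TAZ carry no DNA-binding domain of their own and act in the nucleus through TEAD factors. The Hippo kinases LATS1 and LATS2 phosphorylate them and keep them in the cytoplasm, angiomotin proteins such as AMOTL2 hold them outside the nucleus, and LIM proteins such as AJUBA restrain the LATS kinases. Activity is set largely at the protein level, and mRNA of target genes such as *Cyr61* and *Ctgf* is a common readout of it. In the liver the system is known for its part in organ size and regeneration, in biliary cells and in fibrosis.

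TEAD factors bind a short core that reads CATTCC on one strand and GGAATG on the other. RefSeq windows of 250 bases before the transcription start (GRCm38.p6) were at hand for 8 of the 10 genes, as 10 windows, and were searched for this core on both strands. The windows of 7 of the 8 genes held it. By window the count was 8 of 10, against 12.6% of all 32817 windows of the same length. The windows of *Wwtr1* overlap and hold the same core, which is counted for each of them. The genes were listed beforehand as YAP/TEAD genes, so this share is a description. The 4 windows below are shown because they hold the core, in capitals, and overlap no annotated exon. They read 5′ to 3′ along the strand of the gene, up to the base before its start.
Cyr61 (chr3:145649986-145650235, minus strand): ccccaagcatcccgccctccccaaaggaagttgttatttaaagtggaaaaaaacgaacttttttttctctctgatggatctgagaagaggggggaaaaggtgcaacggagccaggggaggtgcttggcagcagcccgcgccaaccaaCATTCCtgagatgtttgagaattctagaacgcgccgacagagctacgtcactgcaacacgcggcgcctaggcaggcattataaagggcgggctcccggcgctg
Wwtr1 (chr3:57575911-57576160, minus strand): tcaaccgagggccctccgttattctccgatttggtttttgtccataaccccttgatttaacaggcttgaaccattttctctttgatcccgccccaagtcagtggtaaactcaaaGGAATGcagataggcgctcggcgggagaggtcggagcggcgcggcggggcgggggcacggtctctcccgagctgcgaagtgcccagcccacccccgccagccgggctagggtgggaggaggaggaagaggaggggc
Ajuba (chr14:54577662-54577911, minus strand): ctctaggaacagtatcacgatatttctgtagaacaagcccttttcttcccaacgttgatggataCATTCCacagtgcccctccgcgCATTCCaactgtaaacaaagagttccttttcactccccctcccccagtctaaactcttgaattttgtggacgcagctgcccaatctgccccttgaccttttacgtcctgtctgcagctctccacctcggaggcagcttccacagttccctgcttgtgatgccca
Axl (chr7:25788734-25788983, minus strand): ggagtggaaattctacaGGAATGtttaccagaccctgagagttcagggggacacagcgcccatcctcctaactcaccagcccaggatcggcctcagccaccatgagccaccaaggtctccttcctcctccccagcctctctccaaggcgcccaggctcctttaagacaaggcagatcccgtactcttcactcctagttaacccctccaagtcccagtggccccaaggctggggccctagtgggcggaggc
The core of *Cyr61* began 103 bases before the start and that of *Wwtr1* 136 bases before it, or 170 bases before the start of its other window. *Ajuba* held a pair, at 186 and 164 bases, and *Axl* held its core at 233 bases. Outside these 4 genes the core began 65 bases before the start of *Amotl2*, 141 before that of *Yap1*, and 210 and 123 before that of *Ankrd1*, in windows that overlap exons of the annotation. Neither window of *Lats2* held it, and *Ctgf* and *Tead1* had no window. TGANTCA, the AP-1 motif, was in no window of the 8 genes and in 6.75% of all windows. The CArG box, the motif of the serum response factor SRF, was likewise in none of them and in 1.47% of all windows. These are matches of letters and not measured binding.

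Normalised counts summed to between 14123213 and 16554427 per liver, which corresponded to an estimated 11.9 to 19.5 M reads on genes. *Trp53* stood at 147 ± 47.7 (SD, n = 4) in FL and 798 ± 98.2 (SD, n = 3) in WT livers, with a fitted log2 fold change of -2.47 (SE 0.23, limma adjusted p = 0.0447), lower in 4 of 4 FL livers as the labels state. The fold changed little when single livers were left out (-2.68 to -2.35), but the adjusted p rose above 0.05 in several of the alternative fits, to 1 with the replicate block. WT replicate 2 and FL replicate 3 stood apart. WT replicate 2 was the highest of the 7 livers for 3948 of the tested genes and the lowest for 4249. Its summed markers of proliferation were 1116, against 292 in FL replicate 3 and 82 to 132 in the other livers, and its summed macrophage markers were 16532, against 10129 and 6392 to 7814. The defining hepatocyte markers were abundant in every liver, with *Alb* between 956556 and 1511638. The source names of the WT livers shared 1 prefix that no FL liver had. What a prefix marks is not given in the sources used here, and its part cannot be told apart from genotype, although the methods state that litter and age were matched where possible.

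None of the 9 tested genes passed the threshold for a difference between FL and WT livers, and the limma adjusted p was 0.999 for each. The share of all 12545 tested genes that passed the adjusted threshold of 0.05 was 0.0159%. At an unadjusted p under 0.05 the count was again 0 of 9, against 3.2% of all tested genes. FL and WT livers overlapped for every one of the 10 genes. Over all tested genes, 2.77% had every FL liver above every WT liver and 1.98% had every FL liver below. The fitted log2 fold changes of the 9 genes ran from -0.71 for *Ajuba* to 0.56 for *Ctgf*, with 3 above 0 and 6 below, and their median was -0.03 beside 0.01 for all tested genes. In whole liver, fewer cells of a type and less RNA per cell cannot be told apart, and this holds for each value given here.

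**Figure D1:**
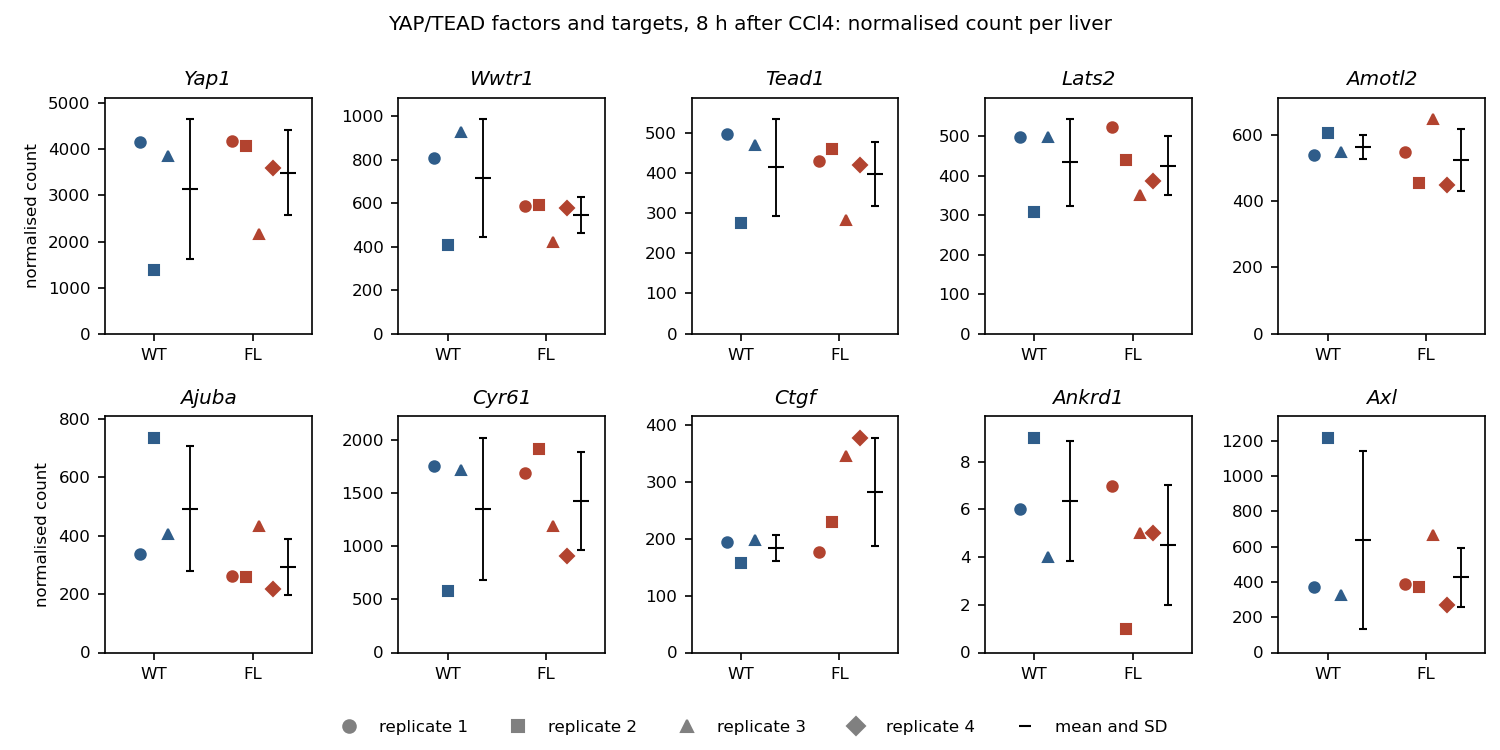
Normalised count (vertical axes, each from 0) of the 10 genes in each WT liver (blue) and FL liver (red); marker shapes give the replicate, and the bars beside them the mean and SD. *Yap1* ran from 1388 to 4171 over the 7 livers, WT replicate 2 being the lowest, and the points of FL and WT livers overlap for each gene.

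For the co-activators, livers of 1 genotype differed by more than the genotype means did. *Yap1* (chromosome 9, 7931999-8004596, minus strand; GRCm38 here and for each gene below) had normalised counts of 4171, 4065, 2159 and 3593 in FL livers 1 to 4, and of 4166, 1388 and 3857 in WT livers 1 to 3. The 5 livers other than FL replicate 3 and WT replicate 2 lay between 3593 and 4171 in both genotypes, and those livers were lower. The means were 3497 ± 927 (SD, n = 4) in FL and 3137 ± 1523 (SD, n = 3) in WT livers, and the fitted log2 fold change was 0.27 (SE 0.41, 95% interval -0.67 to 1.21, limma adjusted p = 0.999). In the exact permutation test, which has 35 splits and cannot give less than 0.0286, p was 0.6. Without WT replicate 2 the log2 fold change was -0.24, and without both livers it was -0.03 (SE 0.09).

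*Wwtr1* (chromosome 3, 57455649-57575910, minus strand) encodes TAZ, the paralogue of YAP. It was at 586, 594, 422 and 579 in the FL and at 810, 410 and 929 in the WT livers. FL replicates 1, 2 and 4 were nearly alike and lay below WT replicates 1 and 3, while WT replicate 2 was the lowest of all 7 livers. Means were 545 ± 82.4 (SD, n = 4) and 716 ± 272 (SD, n = 3), with a log2 fold change of -0.32 (SE 0.28, 95% interval -0.97 to 0.33, limma p = 0.283, exact permutation p = 0.429). This value moved with each WT liver. It was -0.68 (SE 0.16, limma adjusted p = 0.787) without WT replicate 2, -0.19 (SE 0.32) without WT replicate 1 and -0.09 (SE 0.29) without WT replicate 3. Without WT replicate 2 and FL replicate 3 together it was -0.56 (SE 0.10, limma adjusted p = 0.123).

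Per kilobase of exon, *Yap1* was above *Wwtr1* in 7 of 7 livers. The ratio was 3.67, 3.53, 2.64 and 3.2 in FL and 2.66, 1.75 and 2.14 in WT livers. The highest WT liver lay just above the lowest FL liver, and the other FL livers were above all WT livers. Ratios averaged 3.26 ± 0.459 (SD, n = 4) in FL and 2.18 ± 0.455 (SD, n = 3) in WT livers, and this difference was not tested.

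*Tead1* (chromosome 7, 112679318-112906807, plus strand), the TEAD factor among the 10 genes, was at 429, 460, 282 and 420 in the FL and at 496, 275 and 470 in the WT livers. FL replicate 3 and WT replicate 2 were again the low livers, at nearly the same level. The log2 fold change was -0.03 (SE 0.25, 95% interval -0.61 to 0.55, exact permutation p = 0.886), from 398 ± 79 (SD, n = 4) and 414 ± 121 (SD, n = 3). Without both low livers it was -0.15 (SE 0.10).

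Among the other TEAD genes no difference passed the adjusted threshold. *Tead3* stood at 48.2 ± 6.76 (SD, n = 7) normalised counts per kilobase, above *Tead1* at 29.8 ± 6.62 (SD, n = 7), and *Tead1* was 0.418 to 0.731 of *Tead3* in the single livers. *Tead4* and *Tead2* were at 4.57 and 3.07 per kilobase. Of *Tead2*, *Tead3*, *Tead4* and the TEAD partner *Vgll4*, 2 were fitted higher and 2 lower in FL livers and 0 of 4 passed the adjusted threshold, with a median log2 fold change of -0.28. The highest was *Tead3* (0.06) and the lowest *Tead2* (-0.90, exact permutation p = 0.0286, limma adjusted p = 0.999). *Tead2* was at 10, 8, 13 and 10 in the FL and at 19, 29 and 14 in the WT livers, which did not overlap, at levels of few reads.

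**Figure D2:**
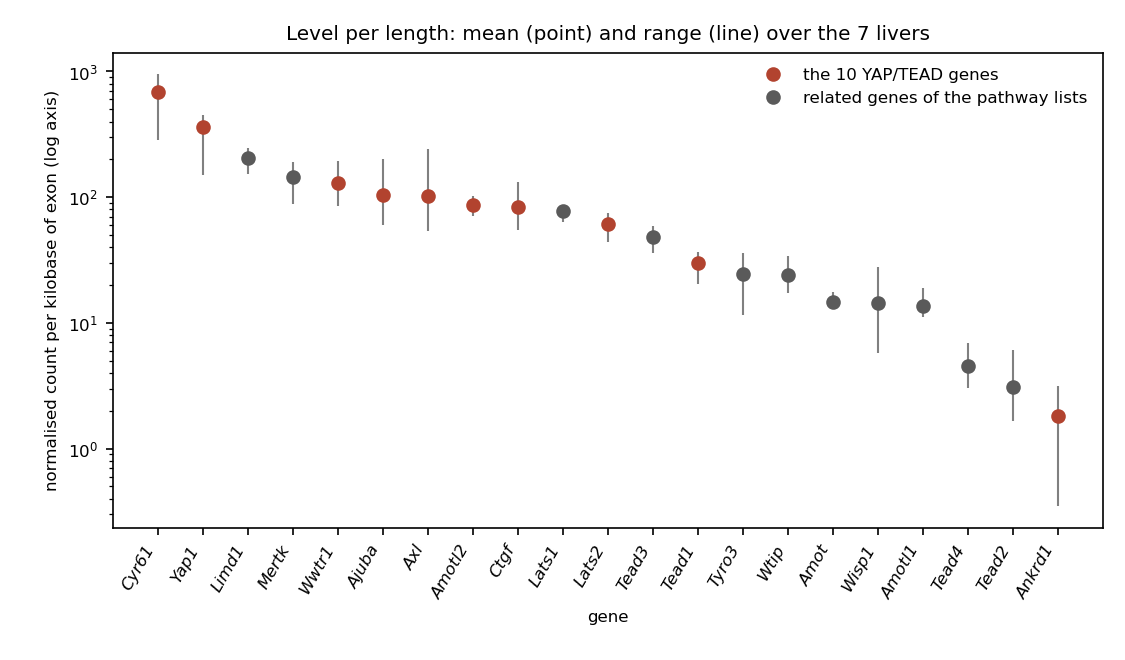
Normalised count per kilobase of merged exon (vertical, log axis) of the 10 genes (red) and related genes (grey), as the mean over 7 livers with a line from the lowest to the highest liver. *Cyr61* stood at 690 and *Ankrd1* at 1.83, and among the 10 genes alone the lines of *Tead1* and *Ankrd1* lie wholly below those of the red points before them.

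Ordered by level per kilobase over the 7 livers, *Cyr61* was first at 690 ± 251 (SD, n = 7), followed by *Yap1* at 361 ± 120 and *Wwtr1* at 129 ± 39.9. *Ajuba* (104 ± 48.3), *Axl* (103 ± 66.3), *Amotl2* (86.2 ± 11.5) and *Ctgf* (83.7 ± 30.2) came next, and *Lats2* (61.5 ± 11.9), *Tead1* (29.8 ± 6.62) and *Ankrd1* (1.83 ± 0.865) were last. The ranges of neighbours overlapped from *Cyr61* down to *Lats2*. *Tead1* (20.3 to 36.6) lay wholly below *Lats2* (44 to 74.9), and *Ankrd1* (0.347 to 3.12) wholly below *Tead1*. Divided by the longest transcript instead of all exons, *Yap1* was at 633, *Amotl2* at 122, *Lats2* at 82.5 and *Tead1* at 40.6 per kilobase.

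*Lats2* (chromosome 14, 57689662-57758388, minus strand), the kinase of the group, is a target of the factors it restrains. Its normalised counts were 522, 440, 350 and 386 in the FL and 497, 307 and 497 in the WT livers. WT replicate 2 was the lowest and FL replicate 3 the next lowest. FL livers averaged 424 ± 74.8 (SD, n = 4) and WT livers 434 ± 110 (SD, n = 3), with a log2 fold change of -0.01 (SE 0.21, 95% interval -0.51 to 0.48, exact permutation p = 1). In the GENCODE vM21 annotation 42.4% of its exon bases lie in *Gm49361* on the same strand. *Gm49361* has no entry in the deposited table, and the authors counted on Ensembl release 75. Its effect on the *Lats2* counts was not tested. *Lats1*, its paralogue, was 1.05 to 1.48 times *Lats2* per kilobase of merged exon. Divided by the longest transcript, *Lats1* averaged 78 and *Lats2* 82.5 per kilobase, so their order depends on the length used.

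*Amotl2* (chromosome 9, 102716672-102733418, plus strand) was the steadiest of the 10 genes, with its highest liver 1.44 times its lowest. Values were 548, 456, 648 and 449 in the FL and 538, 605 and 549 in the WT livers. FL replicate 3 and WT replicate 2 were the highest of their genotype here. The log2 fold change was -0.12 (SE 0.15) and its 95% interval, -0.47 to 0.23, was the narrowest of the 9 genes (exact permutation p = 0.543).

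*Ajuba* (chromosome 14, 54567472-54577558, minus strand) was at 263, 259, 433 and 219 in the FL and at 337, 736 and 407 in the WT livers. WT replicate 2 was highest of all, FL replicate 3 was the highest FL liver, and the other FL livers were below every WT liver. FL livers averaged 294 ± 95.1 (SD, n = 4) and WT livers 493 ± 213 (SD, n = 3), a log2 fold change of -0.71 (SE 0.31, 95% interval -1.44 to 0.01, limma p = 0.0534, exact permutation p = 0.114). Without FL replicate 3 it was -0.92 (SE 0.28, limma adjusted p = 0.899), without WT replicate 2 it was -0.38 (SE 0.25, adjusted p = 0.787), and without both it was -0.59 (SE 0.13, adjusted p = 0.232).

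Leaving out WT replicate 2 and FL replicate 3 together, *Wwtr1* and *Ajuba* were the 2 of 9 genes at an unadjusted limma p under 0.05, against 9.74% of 12325 tested genes. None of the 9 passed the adjusted threshold, which 0.0487% of all genes did. *Wwtr1*, *Tead1* and *Ajuba* then had every FL liver below every WT liver, 3 of 9 against 14.6% of all genes, and 0 of 9 had every FL liver above, against 12.8%. With 3 livers against 2, such splits are common, as the background shares show.

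**Figure D3:**
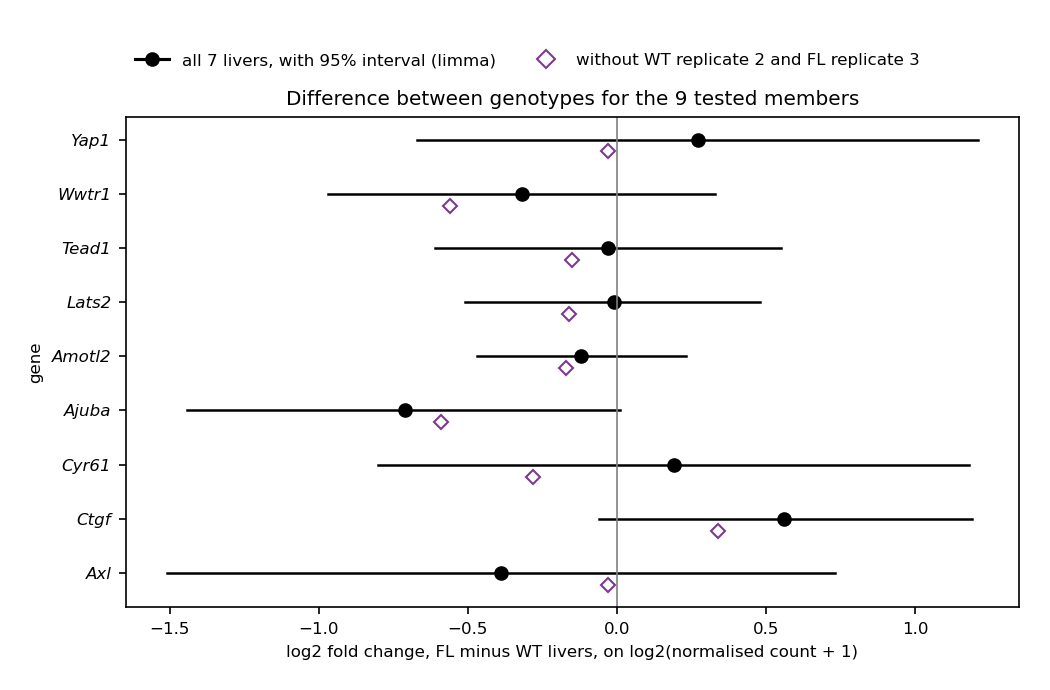
Log2 fold change, FL minus WT (horizontal axis), of the 9 tested genes on log2(normalised count + 1): black points with 95% intervals from limma over all 7 livers, open diamonds without WT replicate 2 and FL replicate 3. Every interval includes 0, and the diamonds of *Yap1* and *Cyr61* lie on the other side of 0 from their points.

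The other genes of the Hippo kinase cascade and its regulators were taken as a list of 19, all tested. They were fitted higher in FL livers for 5 and lower for 14, 0 passed the adjusted threshold, and the median log2 fold change was -0.07. The highest was *Frmd6* (0.22, SE 0.42) and the lowest *Fat4* (-0.96, SE 0.54, exact permutation p = 0.171), an atypical cadherin. *Ptpn14*, a phosphatase that binds YAP, was the gene with an unadjusted p under 0.05 (log2 fold change -0.47, exact permutation p = 0.0571, limma adjusted p = 0.999), at 78, 61, 56 and 57 in the FL and 80, 93 and 89 in the WT livers. These did not overlap, by 2 normalised counts.

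Of the targets, *Cyr61* (chromosome 3, 145646976-145649981, minus strand), which encodes a secreted matrix protein, was at 1691, 1915, 1191 and 907 in the FL and at 1752, 576 and 1717 in the WT livers. WT replicate 2 was the lowest by a wide margin, and FL replicates 3 and 4 were below the other FL livers. FL livers averaged 1426 ± 460 (SD, n = 4) and WT livers 1348 ± 669 (SD, n = 3), with a log2 fold change of 0.19 (SE 0.43, 95% interval -0.80 to 1.18, exact permutation p = 0.743). Without WT replicate 2 it was -0.34 and without both livers -0.28, so its sign turned without that liver.

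*Ctgf* (chromosome 10, 24595442-24598683, plus strand), the other CCN protein gene and a mediator of fibrosis, was at 176, 230, 345 and 377 in the FL and at 194, 157 and 198 in the WT livers. The 3 WT livers lay close together, FL replicates 2, 3 and 4 were above all of them, and FL replicate 1 was among them. FL livers averaged 282 ± 94.8 (SD, n = 4) and WT livers 183 ± 22.6 (SD, n = 3), a log2 fold change of 0.56 (SE 0.27, 95% interval -0.06 to 1.19, limma p = 0.071, exact permutation p = 0.171). Without both livers that stood apart it was 0.34 (SE 0.26), and without FL replicate 1 it was 0.77 (SE 0.22, limma adjusted p = 1). Without FL replicate 4, the highest liver, it was 0.40 (SE 0.26), and with array weights 0.30 (SE 0.20). In the GENCODE vM21 annotation 23.2% of its exon bases lie opposite *Gm15270*, a gene on the other strand without an entry in the deposited table. Whether the counting used strand is not given in the sources used here.

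*Cyr61* and *Ctgf* did not keep 1 ratio. Per kilobase *Cyr61* was 13.6, 11.8, 4.89 and 3.41 times *Ctgf* in the FL and 12.8, 5.2 and 12.3 times in the WT livers. FL replicates 3 and 4, with much *Ctgf* and less *Cyr61*, and WT replicate 2, with little of both, were the low livers. In FL replicate 4, *Cyr61* was at 0.503 and *Ctgf* at 1.86 of the mean of FL replicates 1 and 2.

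*Wisp1*, the tested gene among the 4 other CCN family genes, was at 75, 51, 32 and 58 in the FL and at 86, 109 and 154 in the WT livers, with every FL liver below every WT liver. Its log2 fold change was -1.11 (SE 0.32, exact permutation p = 0.0571, limma adjusted p = 0.999), opposite in sign to that of *Ctgf*. *Nov*, *Wisp2* and *Wisp3* had mean levels under 10.

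*Ankrd1* (chromosome 19, 36111961-36120099, minus strand), a target gene that encodes an ankyrin repeat protein, was at 7, 1, 5 and 5 in the FL and at 6, 9 and 4 in the WT livers. These are few reads in every liver, with no liver at 0, and the groups overlapped. Levels were 4.5 ± 2.52 (SD, n = 4) and 6.33 ± 2.52 (SD, n = 3), and the gene was left out of the main test at these levels.

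*Axl* (chromosome 7, 25757273-25788705, minus strand), a receptor tyrosine kinase for the ligand GAS6 that macrophages carry, was at 389, 374, 667 and 272 in the FL and at 372, 1218 and 325 in the WT livers. WT replicate 2 was the highest and FL replicate 3 the next, and the other livers of both genotypes lay between 272 and 389. FL livers averaged 426 ± 169 (SD, n = 4) and WT livers 638 ± 503 (SD, n = 3), with a log2 fold change of -0.39 (SE 0.48, 95% interval -1.51 to 0.73, exact permutation p = 0.6). Without WT replicate 2 it was 0.21 and without both livers -0.03 (SE 0.16).

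The ligands and related receptors of *Axl* showed no difference past the threshold either, with 0 of 4 called, 1 fitted higher and 3 lower. *Pros1* was the highest (0.08, SE 0.21) and *Tyro3* the lowest (-0.18, SE 0.41). *Gas6* was at 707, 637, 930 and 606 in the FL and at 645, 945 and 598 in the WT livers, with the same high livers as *Axl*. *Mertk*, the receptor of the same family that macrophages use, was lowest in FL replicate 3 at 381.

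**Figure D4:**
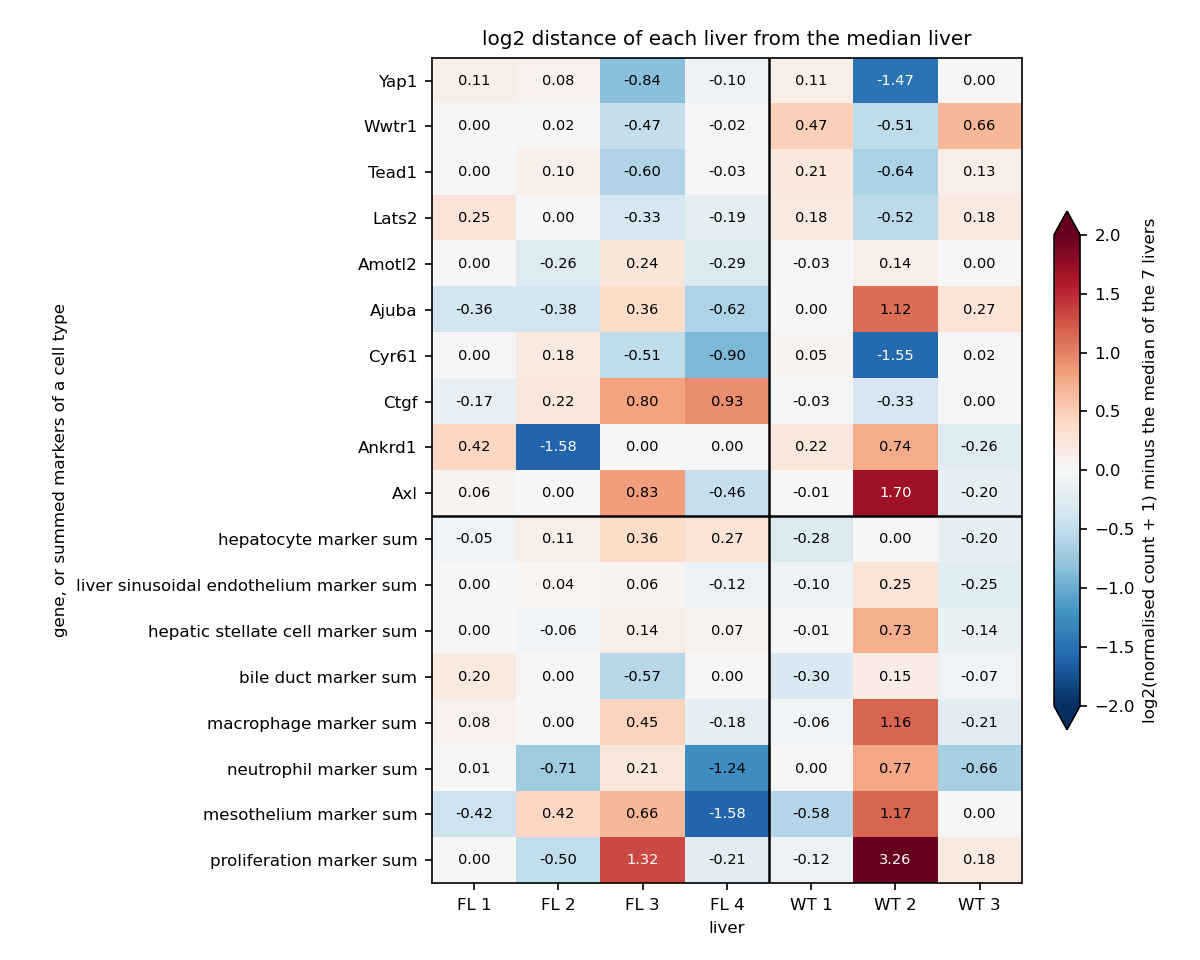
Log2(normalised count + 1) of each of the 7 livers (columns) minus the median of the livers, for the 10 genes (upper block) and the summed markers of cell types and of proliferation (lower block); red is above the median liver and blue below. In WT replicate 2 *Yap1* was at -1.47, *Cyr61* at -1.55, *Ajuba* at 1.12 and *Axl* at 1.70, and FL replicate 3 had the same signs.

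In the livers that stood apart, some of the 10 genes were low and others high. WT replicate 2 was the lowest of the 7 livers for 6 of the 9 tested genes and the highest for 2. Over all 12545 tested genes it was the lowest for 4249 and the highest for 3948. *Yap1*, *Wwtr1*, *Tead1* and *Lats2* were lowest there and lowest of the FL livers in FL replicate 3, 4 of 9 genes against 23.6% of all tested genes. *Ajuba* and *Axl* were highest in both, 2 of 9 against 21.2%. In WT replicate 2 *Yap1* was 0.346, *Cyr61* 0.332 and *Wwtr1* 0.472 of the mean of the other WT livers, and *Axl* was 3.49 and *Ajuba* 1.98 times it. In FL replicate 3 *Yap1* was 0.548 of the other FL livers, *Axl* 1.93 times and *Ajuba* 1.75 times.

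Markers of some other cell types also differed in these livers, though not all in the same way in both. WT replicate 2 had the highest value of 9 of 10 macrophage markers, and FL replicate 3 led the FL livers for 8 of them. Over all 12545 tested genes, WT replicate 2 was the highest liver for 3948, and FL replicate 3 led the FL livers for 4393. Stellate cell markers summed to 11303 in WT replicate 2 and 6185 to 7492 in the other livers, and 8 of 10 were highest in WT replicate 2. FL replicate 3 was at 7492. Sinusoidal endothelial markers summed to 7500 in WT replicate 2 and 5274 to 6568 in the other livers, FL replicate 3 being at 6568. Of these markers, 8 of 10 were highest in WT replicate 2. Bile duct markers summed to 1046 in FL replicate 3, 1724 in WT replicate 2 and 1257 to 1785 in the other livers. Hepatocyte markers summed to between 1217748 and 1901401, neutrophil markers to 44 to 180 and mesothelial markers to 3 to 26. Of the 7 tested hepatocyte markers, 6 were fitted higher in FL livers and 1 lower, and 0 passed the adjusted threshold. At an unadjusted limma p under 0.05 there were 2, both higher, against 3.2% of all tested genes in either direction. None of the listed markers with values was at 0 in all livers. All 6 tested proliferation markers were highest in WT replicate 2. The part of these cells in the levels of the YAP/TEAD genes was not tested.

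Of the 8 bile duct markers, 1 was fitted higher and 3 lower in FL livers at an unadjusted p under 0.05, against 3.2% of all tested genes in either direction, and 0 passed the adjusted threshold. *Krt19* was at 21, 11, 6 and 17 in the FL and at 128, 106 and 26 in the WT livers (exact permutation p = 0.0286, limma adjusted p = 0.999), and *Krt7* at 14, 8, 2 and 18 and at 33, 33 and 28. *Sox9*, a gene of biliary cells that the YAP system is known to raise, was at 763, 596, 297 and 555 in the FL and at 261, 249 and 204 in the WT livers (log2 fold change 1.14, SE 0.30, exact permutation p = 0.0571, limma adjusted p = 0.999). Bile duct cells are rich in YAP, and their part in the levels of the 10 genes was not tested.

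Lists of related genes were described in the same way, beside 6475 genes fitted higher and 6070 lower in FL livers over all tested genes. Among 15 of 16 other YAP/TAZ target genes with values, 3 were fitted higher and 12 lower in FL livers, 0 passed the adjusted threshold, and the median log2 fold change was -0.16. *Gadd45a*, a stress gene that p53 also controls, was the highest (0.66, SE 0.35, exact permutation p = 0.2), at 1306, 1480, 681 and 809 in the FL and 651, 426 and 955 in the WT livers. *Myof*, which encodes the membrane repair protein myoferlin, was the lowest (-0.69, SE 0.65), at 36, 24, 50 and 23 and at 26, 172 and 30, with WT replicate 2 the highest. *Ptpn14*, given above, is in this list too, and *Foxf2* was not analysed here.

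Genes of SRF and the actin cytoskeleton, which share targets with YAP, were 14 in number, with 5 fitted higher and 9 lower, 0 called and a median of -0.06. *Actg1* was the highest (0.22, SE 0.42) and *Acta2*, the smooth muscle actin of activated stellate cells, the lowest (-0.98, SE 0.46, exact permutation p = 0.171). *Acta2* was at 17, 15, 34 and 35 in the FL and at 76, 54 and 26 in the WT livers, which overlapped.

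The genes with the pattern most like that of *Yap1* over the 7 livers were *Qtrt2*, *Smg8* and *Pcsk6*, at a mean absolute log2 difference of 0.031, 0.0346 and 0.0412 between centred profiles, against a median of 0.506 over all tested genes. *Qtrt2* was at 548, 494, 275 and 449 in the FL and at 540, 181 and 487 in the WT livers, low in the same livers as *Yap1*. For *Ctgf* they were *Oas1b*, *Rdh16f2* and *Stac3*, at 0.108, 0.113 and 0.143 against a median of 0.424. *Rdh16f2* was at 872, 897, 1265 and 1404 in the FL and at 722, 608 and 643 in the WT livers, with FL replicates 3 and 4 highest as for *Ctgf*. These genes were named by likeness alone.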

How the data were processed

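Liver mRNA of the 4 FL and 3 WT mice was sequenced as paired reads from a stranded poly(A) library, 1 library per mouse. Per the study's methods, the authors aligned the reads with Tophat (2.0.13) and Bowtie (2.2.6.0) to the mouse genome of Ensembl release 75, and counted and scaled them with HTSeq (2.2.4.0), R (3.4.2) and DESeq2. The methods and the submitters' processing notes write the build as GRCh38, which is a human name, and the processing notes also name featureCounts. The deposited values are normalised counts. Because the authors had rounded these deposited values to whole numbers, they were treated as a score rather than as raw counts, and no count test was run.

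The table held 14988 entries for 14851 Ensembl identifiers. The 120 identifiers listed more than once had identical values and were used once. Symbols (14839 identifiers) and coordinates came from GENCODE vM21 (GRCm38), and promoter windows from RefSeq (GRCm38.p6). Columns of other samples: 0. The worth of 1 read was fitted from the spacing of low values and ran from 0.812 to 1.38 normalised counts. The precision that this depth gives covers counting error only.

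The genotypes were compared on log2(normalised count + 1). The 12545 genes with a mean of 10 or more were fitted in limma 3.58.1 (R 4.3.3) with lmFit and with eBayes, using its trend option. A fold change on this scale understates the change of low genes. P-values were two-sided and adjusted by the Benjamini-Hochberg method over all tested genes, with a threshold of 0.05. For single genes an exact two-sided permutation test used the 35 splits of the livers.

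Every one of the 10 genes was named, and *Trp53*. From each other list, genes past the threshold and those with the highest and lowest log2 fold change were named, with markers where they touched a result. For *Yap1* and *Ctgf* the 3 genes of most similar profile were named. *Ptpn14*, *Wisp1*, *Gas6*, *Mertk*, *Krt19*, *Krt7*, *Sox9* and the levels of further *Tead* genes were named after their values were seen. The genes and lists were chosen with earlier results of these data known. Levels between genes were compared per kilobase of merged exons.

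The alternatives were pseudocounts of 0.5 and 5, no filter or a mean of at least 50, quantile normalisation, no trend, array weights, a replicate block, leaving out each liver, leaving out WT replicate 2 and FL replicate 3 together, and the longest transcript as length. The second RNA-seq experiment of the study was not analysed here.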

Additional observations from a re-analysis of the deposited data

Results flagged for a closer look

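*Wwtr1* in FL replicate 3 was at 422 normalised counts, while FL replicates 1, 2 and 4 lay between 579 and 594. Its gap to the nearest of them was 0.913 of the whole range of the 4 livers, above Dixon's 95% critical value for 4 samples. It was the 1 of 11 genes examined (the 10 YAP/TEAD genes and *Trp53*) whose lowest or highest FL liver passed this value, and chance gives about 1 in 20 groups. Other genes of the system were also lowest among FL livers in FL replicate 3, with *Yap1* at 2159, *Tead1* at 282 and *Lats2* at 350. *Amotl2* (648), *Ajuba* (433) and *Axl* (667) were instead highest there among FL livers. Over all 12545 tested genes, FL replicate 3 was the lowest FL liver for 4323 and the highest for 4393. Without FL replicate 3 the log2 fold change of *Wwtr1* was -0.20 (SE 0.29), against -0.32 (SE 0.28) with it. The 3 WT livers are too few for this rule, and *Wwtr1* in WT replicate 2 was at 410 beside 810 and 929.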

How the results depend on the processing

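The 9 tested genes were refitted under 16 alternatives, which gave 144 log2 fold changes. None passed the adjusted threshold (lowest adjusted p 0.123), 127 kept their sign, and 17, of 5 genes, did not. With array weights *Axl* was at 0.08, *Cyr61* at -0.14 and *Yap1* at -0.02. Without WT replicate 2 and FL replicate 3 *Cyr61* was at -0.28 and *Yap1* at -0.03. *Lats2* was at 0.00 after quantile normalisation. Leaving out 1 liver at a time gave -0.74 to 0.21 for *Axl*, -0.34 to 0.46 for *Cyr61*, -0.24 to 0.10 for *Lats2*, -0.30 to 0.12 for *Tead1* and -0.24 to 0.55 for *Yap1*. The number of the 9 genes at an unadjusted p under 0.05 was 0 over all livers, 2 with array weights, 2 without WT replicate 2 and FL replicate 3, and 0 to 1 with 1 liver left out. Over all tested genes, the number past the adjusted threshold was 2 over all livers, 0 with a pseudocount of 5, a minimum mean of 50, no trend or the replicate block, 1 after quantile normalisation, 5 with array weights, 6 without WT replicate 2 and FL replicate 3, and 0 to 5 with 1 liver left out. Unadjusted p was under 0.05 for 404, 316, 465 and 110 genes in the settings with 0, and for 1512 with array weights. For *Trp53*, refitted after the data had been seen, the log2 fold change lay past the adjusted threshold over all livers but not with a pseudocount of 5 (-2.44, adjusted p = 0.0501), a minimum mean of 50 (-2.47, 0.0666), no trend (-2.47, 0.103) or the replicate block (-2.35, 1). Leaving out 1 liver gave -2.68 to -2.35, with adjusted p = 0.00488 without FL replicate 3 and 0.0597 to 0.32 without each other liver, and leaving out WT replicate 2 and FL replicate 3 gave -2.78 (2.58e-05). The causes were not tested. With the replicate block *Lats2* was at 0.03, and the block, in which FL replicate 4 had no partner, changed no call among the 9 genes. Mice of the same number were different animals. Deviations of same-numbered livers from their group means correlated at 0.44, -0.48 and -0.66 across genes. WT replicate 2 and FL replicate 3 stood apart in their groups, so these values cannot tell whether the numbers pair the livers. The levels per kilobase with the longest transcript moved by more than 1 SD for *Amotl2* (122), *Lats2* (82.5), *Tead1* (40.6) and *Yap1* (633). The 7 livers, 2 of them far from the rest, limit every comparison. The 95% interval of *Yap1* ran from 0.63-fold to 2.31-fold. *Ankrd1* was too low to test, and its log2 fold change with no filter was -0.52.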
